A study of Schizosaccharomyces pombe with 4 samples.

Results

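The genes described here are those of the fission yeast Schizosaccharomyces pombe whose introns add up to 300 bases or more. They were chosen from the annotation columns of the deposited table, as nuclear features other than non-coding, tRNA, rRNA, snRNA and snoRNA entries whose span exceeds the transcript length by at least that much. The rule found 420 genes among 6808 features, or 16.8% of the 2504 features with any intron under the same rule. The other 2084 features with introns are called shorter-intron genes below. The rule itself uses no measured value.

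RNA was compared between wild-type cells (h- ura4-D18 leu1-32) and cells of the same markers that carry int6::kanMX6. In these the gene of eIF3e, a subunit of translation initiation factor eIF3, is disrupted by a drug resistance cassette. Both strains were grown in yeast extract medium with adenine and uracil until the OD lay between 0.8 and 1.0, and total RNA was depleted of rRNA and sequenced on a SOLiD 4 instrument. Each strain has 2 libraries. The labels do not say whether these came from separate cultures, so p-values measure only the spread between the libraries, which may be technical.

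Reads assigned to all features numbered 17485020 and 9926548 in wild-type replicates 1 and 2, and 28254322 and 16679123 in eif3e deletion replicates 1 and 2. Values below are listed in that library order. int6 had 504, 194, 1 and 10 reads, which goes with the labels. Of 5 M-cell markers, which h- cells express, mfm2, mam1 and mam2 had 27 to 359 reads in every library, mfm1 at most 1 and mfm3 at most 20. Of 3 P-cell markers, map2 had 2 to 12 reads, map3 9 to 41 and map4 50 to 215, so the lists do not settle the labelled mating type.

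Introns are removed by the spliceosome, which pairs U1 snRNA with the 5′ splice site, U2 snRNA with the branch site, and joins the exons at a 3′ AG. Introns of fission yeast are mostly short, and long ones are a minority. A read across a joined exon pair, a junction read, can come only from spliced RNA. The deposited table gives such reads per gene as junction RPKM, that is, relative to the length of the transcript and the size of the library. It also gives incompatible RPKM, which none of the sources used here defines. At least 99.9% of the values above 0 came to whole reads within 0.02, and both are given below as reads.

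RefSeq's introns of assembly ASM294v3 add up exactly to the deposited intron bases in 399 of the 420 genes. These 399 hold 1470 introns, with 61 genes of 1 intron, 77 of 2, 84 of 3 and 177 of 4 or more. An intron of at least 300 bases occurs in 120 of the genes, 1 in each, while 279 reach the total through several shorter ones. Total intron bases run from 300 to 1215 with a median of 375. The genes just inside the limit are SPBC16A3.12c and spp2, the large subunit of DNA primase, at 300 bases, and SPCC132.03 at 301. Just outside, at 299, are his3, qtr2 and trr1.

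The ends of 6 long introns are printed because their genes recur in the results: they have many intron bases (gnd1, elo1, cit1), few junction reads (rad24, rad25), or many (rpt4). Capitals mark the first 6 bases, the last 3, and CTAAC where a search of the final 60 bases on the transcribed strand found it within the stretch shown. The sequences are RefSeq's, read 5′ to 3′ on the strand of the gene.
gnd1 intron 3 start: GTAAGTtttgtgtaa
gnd1 intron 3 end: tcgaatgtgaatatgCTAACatcattgTAG
elo1 intron 1 start: GTGAGTttgtcgata
elo1 intron 1 end: ttcatgttgatttttaCTAACaattttTAG
cit1 intron 1 start: GTAAGTgcaagccta
cit1 intron 1 end: tttactttttaCTAACttttaaattatTAG
rad24 intron 1 start: GTATGTgcttttata
rad24 intron 1 end: tccttatgtacttatcactaatatatcCAG
rad25 intron 1 start: GTATGTgataaggat
rad25 intron 1 end: tttgcttctttgCTAACtgataatgtaTAG
rpt4 intron 1 start: GTAAGTaattactca
rpt4 intron 1 end: attattttctgtttccCTAACctattcTAG

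These introns lie between coding exons. That of gnd1 is chr2:230680-231496 on the plus strand, of elo1 chr1:252753-253589 on the minus strand, of cit1 chr1:2327863-2328646 plus, of rad24 chr1:3384338-3384744 plus, of rad25 chr1:3583996-3584712 minus and of rpt4 chr3:405830-406302 plus. The start GTAAGT opened 45.8% of the 120 introns of 300 bases or more, 36.9% of the 333 introns of 100 to 299 bases and 22.1% of the 1017 shorter ones in the same genes. GTATGT opened 27.5%, 20.4% and 17.7%. The branch motif CTAAC was found in the last 60 bases of 70.0%, 53.2% and 37.8%. Shorter-intron genes gave 40.1% GTAAGT and 58.4% CTAAC for their 596 introns of 100 bases or more, and 25.3% and 42.1% for their 2953 introns under 100. The sequence shares thus followed intron length in both groups of genes. No match says only that these letters are not in the window.

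On chromosomes 1 and 2, 170 and 142 genes met the rule, which is 15.3% and 15.01% of their features with introns. On chromosome 3 there were 108, or 24.3%. The wtf genes, a family of spore killers and their relatives, account for 19 of the 108. Without that family the share on chromosome 3 was 21.1%. Introns lie within the coding region alone in 355 genes, in the 5′ UTR alone in 12, and in both or other places in 32.

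The 420 genes held 215770, 81000, 345524 and 128044 reads, and 5776, 2124, 10046 and 3903 junction reads. Junction reads were therefore 2.68%, 2.62%, 2.91% and 3.05% of their reads. In shorter-intron genes the shares were 2.25%, 2.50%, 2.53% and 2.70%, lower in each library. Junction reads were seen in 311, 245, 282 and 287 of the genes, so eif3e deletion replicate 1 had the most junction reads but not the most genes with any. Over all libraries 360 genes had a junction read, 194 had them in every library, and 60 had none, 31 of these with a mean of 50 reads or more. The 10 genes with the most held 32.5% of all 21849.

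The most junction reads came from mpc1, whose product carries pyruvate into mitochondria, with 302, 134, 975 and 367. qcr8, a subunit of respiratory complex III, had 347, 116, 301 and 145. ade2, which makes adenylosuccinate in AMP synthesis, had 184, 59, 349 and 249. The order is not that of the reads, which were 3974, 1736, 11194 and 3740 for mpc1, with 5 introns, and 8629, 3633, 19358 and 13218 for ade2, with 2.

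Among genes with a mean of 50 reads or more, the share was highest in some with 3 or more introns. fkh1, an FKBP-type prolyl isomerase with 4 introns, had 48, 19, 126 and 45 junction reads among 229, 111, 612 and 216 reads. grx1, a glutaredoxin with 3, had 110, 36, 173 and 58 among 545, 226, 1070 and 277. The Rab GTPase gene ypt5, the Arp2/3 subunit gene arc4, the SAGA subunit gene spt20 and aph1 complete the highest 6. Among genes with a mean of 50 reads or more and no junction read, the most reads were in nmd5, an importin, with 496, 168, 716 and 312. cdc22, the large subunit of ribonucleotide reductase, had 316, 230, 801 and 249, and ade4, the first enzyme of purine synthesis, 380, 153, 438 and 225. All of these last have 1 intron, and 0 among the 1692 reads of nmd5 allows a share of up to 0.177%, taking 3 counts as the limit.

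Because longer transcripts dilute a junction, the junction reads were also divided by the number of introns and by the reads per base of the transcript. The result, called junction depth, is the length of exon that would collect as many reads as 1 junction did. Its median was 10.2 bases over 332 long-intron genes and 8.47 over 1579 shorter-intron genes. By library the medians were 9.87, 7.84, 8.50 and 11.1 against 7.29, 3.69, 4.54 and 6.44. Among genes with 1 intron the groups had nearly the same median, 6.52 and 6.49. For 2 or 3 introns it was 10.7 and 10.2, and for 4 or more 10.2 and 8.67. Genes of the same library are not replicates, so these are descriptions without a test.

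Junction depth did not fall steadily with intron length. Over all features with introns the median was 3.96 bases where the longest intron was at most 50 bases, 9.62 for 51 to 100, 10.8 for 101 to 200, 9.22 for 201 to 299, 11.3 for 300 to 399 and 7.09 at 400 or more. Among the 51 genes of the last class 12 had no junction read. In the 27 of these with 1 intron only, the median was 2.55 bases. Of the 9 well-covered genes whose 1 intron lies in the 5′ UTR, 6 had no junction read, compared with 9 of 45 with the intron in the coding region. The stress transcription factor gene atf1 is one of the 6, with a 5′ UTR intron of 855 bases and 338, 75, 329 and 123 reads. Few junction reads were due in these: the long-intron median of 10.2 bases would give 3.13 in atf1 and 2.85 in mdh1. It would give 2.06 in bdf2, 2.02 in pmd1, 0.822 in cdc13 and 5.59 in ade4. Of shorter-intron genes with all introns in the 5′ UTR, 10 of 36 had no junction read, beside 220 of 803 with 1 intron.

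**Figure D1:**
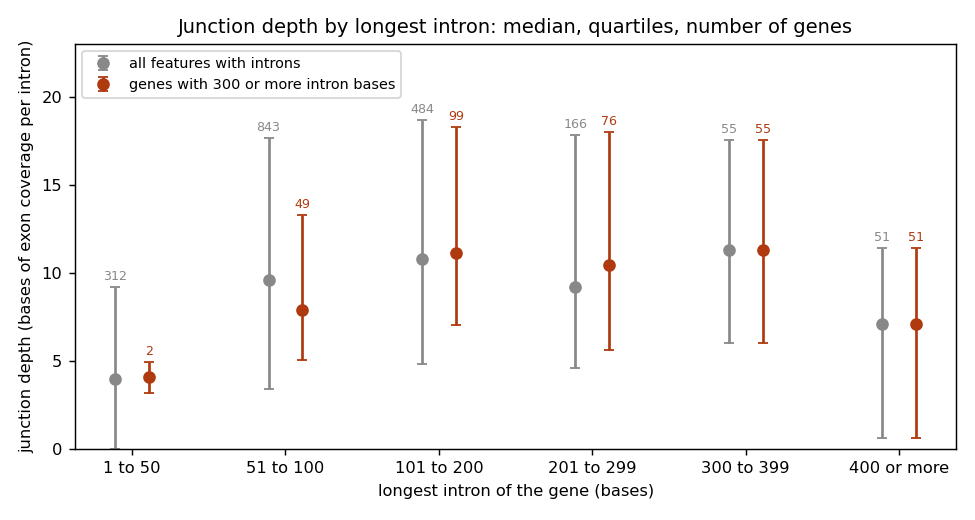
Median junction depth in bases of exon coverage per intron (points) with quartiles (bars), by the longest intron of a gene in bases, for all features with introns (grey) and genes with 300 or more intron bases (red), with the number of genes above. Medians sit between 9.22 and 11.3 from 51 to 399 bases for all features, and lower in the outer classes.

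In genes with 1 intron every junction read belongs to that intron. Of the 61 such genes, 54 had a mean of 50 reads or more. Their junction reads, summed over the libraries, were set beside the number that the median depth of 10.2 bases would give for the same reads and transcript length. The exact 95% Poisson interval, which covers counting error only, held that number in 35 genes, lay under it in 10 and over it in 9. That median is over long-intron genes with any number of introns, and the 54 had a lower median of their own, 6.52 bases. Against a lower benchmark no more genes would lie under it and no fewer over it, so these positions depend on the choice.

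The largest shortfall in reads was in mrt4, a ribosome assembly factor, with 7, 3, 5 and 0 junction reads among 4258, 1129, 3294 and 1298 reads: 15 in all, where the median depth gives 97.2. rpl701, an L7-like ribosomal protein gene, had 0, 0, 1 and 1 among 948, 382, 1416 and 660, where it gives 36.5. The 14-3-3 genes stood together, with 1 junction read among 1678 reads in rad25 (16.2 at the median depth) and 5 among 2138 in rad24 (19.98). The introns of both open with GTATGT and are printed above. gpd3, a glyceraldehyde 3-phosphate dehydrogenase whose intron is in the 5′ UTR, had 15 against 37.1, and srp54, of the signal recognition particle, 16 against 28.8. The cytochrome oxidase gene cox4 had 4 against 13.3, and nmd5, cdc22 and ade4 had 0 against 4.94, 5.98 and 5.59.

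Above it stood rpt4, a base subunit of the proteasome, with 26 junction reads where the median depth gives 5.90, grx5, a mitochondrial glutaredoxin of iron-sulfur assembly, with 88 against 45.3, and rpp0, of the ribosomal stalk, with 63 against 29.5. ymc1, a mitochondrial carrier, had 27 against 2.28, but 26 of these came from eif3e deletion replicate 1. cox6, shr3, aha1, pmp3 and SPAC694.04c complete the 9. A long intron was no bar to the median: cit1, citrate synthase, has 784 intron bases and had 9 against 6.95, and cut6, acetyl-CoA carboxylase, has 622 and had 9 against 9.58. Reads of related gene copies, as of rad24 and rad25, may have been assigned to either, though the read values of both were whole in every library.

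**Figure D2:**
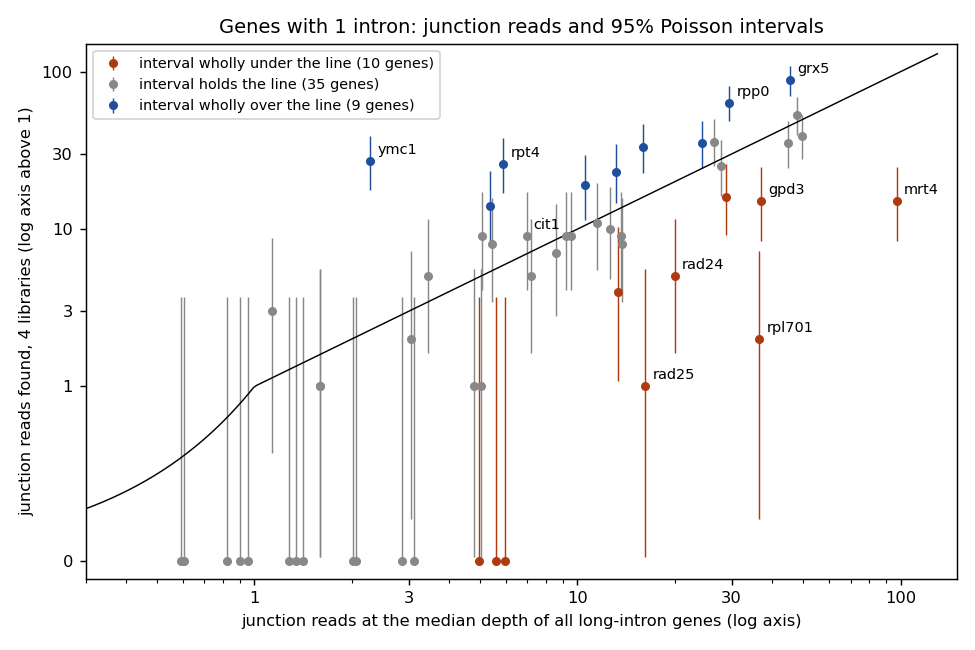
Junction reads found over the 4 libraries (vertical, log axis above 1) against the number at the median depth (horizontal, log axis) for 54 genes with 1 intron, with exact 95% Poisson intervals and the line of equality. The 10 genes in red lie wholly under the line, and the blue ones wholly over it. Of the red genes with any junction read, rpl701 and rad25 are farthest in ratio.

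The largest totals of intron bases belonged to gnd1 (1215), prr1 (1049), elo1 (891), atf1 (855), tsp0 (804), dbp2 (795), rmt1 (787), cit1 (784), trk2 (774) and osh42 (764). gnd1, of the pentose phosphate pathway, had 2223, 913, 4937 and 3235 reads and 69, 18, 33 and 68 junction reads. dbp2, a DEAD-box RNA helicase, had 2423, 830, 1570 and 876 reads and 28, 11, 17 and 3 junction reads. trk2, a potassium transporter with 12 introns, had 253, 90, 245 and 148 reads and 5, 0, 0 and 0 junction reads.

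In 7 genes the intron holds another feature on the same strand, which RefSeq classes as a snoRNA, SPNCRNA.498 without a snoRNA name. Such snoRNAs are trimmed from the excised intron and guide modification of other RNAs, C/D types 2′-O-methylation and H/ACA types pseudouridylation. The hosts are cpc2 (snoU24b), nog2 (snR191), ade4 (snoR58), ipa1 (SPNCRNA.498), gua1 (snoR54), pfd1 (snoZ15) and rpl701 (snoR39b). The whole intron 2 of cpc2, which encodes the ribosomal protein RACK1, is shown with snoU24b in capitals, at chr1:2440254-2440506 plus. snoR39b, at chr2:1791743-1791820 minus, is shown with matches to the C and D box letters TGATGA and CTGA in capitals.
cpc2 intron 2: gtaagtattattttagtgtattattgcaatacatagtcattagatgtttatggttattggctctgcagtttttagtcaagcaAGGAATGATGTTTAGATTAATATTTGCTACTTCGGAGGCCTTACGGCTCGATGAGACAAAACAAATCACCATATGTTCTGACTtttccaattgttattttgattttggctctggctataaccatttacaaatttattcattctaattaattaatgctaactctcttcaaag
snoR39b: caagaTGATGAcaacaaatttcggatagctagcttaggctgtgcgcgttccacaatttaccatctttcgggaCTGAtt

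The RNAs inside the introns were far above their hosts per length, except snoZ15. snoU24b stood at 6660, 5664, 3375 and 3866 RPKM against 106, 75.5, 73.2 and 69.7 for cpc2. snoR54 stood at 14824, 13420, 8282 and 8394 RPKM against 94.0, 51.4, 48.5 and 47.2 for gua1, IMP dehydrogenase. snoZ15, at 54.5, 57.7, 21.4 and 20.7 RPKM, was below pfd1, a prefoldin subunit, at 97.3, 82.4, 137 and 76.0.

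By RPKM, which divides by all reads of a library, 6 of the 7 inner RNAs were lower in both deletion libraries than in both wild-type libraries. By TMM-normalized CPM, which rescales the libraries, only snoR58 and snoZ15 were. The ratio of inner RNA to host, which no scaling of libraries changes, was lower in both deletion libraries in 4 of 7. It was 62.6, 75.02, 46.1 and 55.4 for snoU24b, 46.1, 40.2, 24.5 and 23.6 for snoR58, 0.560, 0.701, 0.156 and 0.272 for snoZ15, and 12.5, 15.4, 7.61 and 11.7 for snoR39b. These ratios were chosen for display after their values were seen and were not tested. By CPM 32 of the 50 other snoRNAs that passed the filter (64.0%) were lower in both deletion libraries, beside 2 of the 7 inner RNAs and 21.4% of all features. On that scale lower values were thus not a trait particular to the snoRNAs inside long introns. The part of size selection of small RNAs in these values was not tested.

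**Figure D3:**
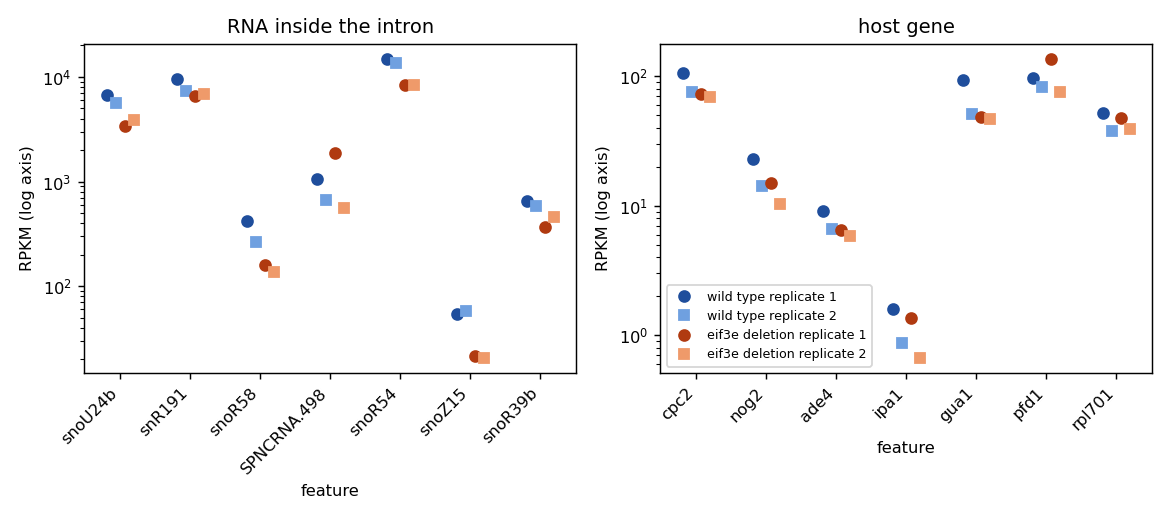
RPKM (log axis) of 7 RNAs inside introns (left) and of their host genes (right) in the 4 libraries. All but SPNCRNA.498 are lower in both deletion libraries on this scale, and only snoZ15 is at or under its host.

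The strains were then compared in reads, by edgeR's quasi-likelihood test across all 5915 features that passed its filter, of which 409 are long-intron genes. At a Benjamini-Hochberg adjusted p of 0.05, 0 of the 409 were called, where 0.0169% of all features were called higher in the deletion and 0% lower. The smallest adjusted p among them was 0.245. At an unadjusted p under 0.05, 23 were higher and 8 lower, where 4.8% and 5.31% of all features were. In 105 genes (25.7%) the deletion libraries were both higher than the wild-type ones, and in 62 (15.2%) both lower, beside 20.1% and 21.4% of all features. The median log2 change was 0.09, beside 0.00 over all features and 0.03 over shorter-intron genes. Without eif3e deletion replicate 1 it was 0.02, beside -0.04 over all features in the same setting.

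Among the genes with the smallest p on the higher side, ubc7, a ubiquitin-conjugating enzyme of endoplasmic reticulum degradation, had 173, 62, 578 and 208 reads. Its CPM was 7.48, 7.31, 16.5 and 17.5, with no overlap between the strains and a log2 change of 1.20 ± 0.27 (SE, edgeR adjusted p = 0.245). get4, of tail-anchored protein insertion, had CPM of 4.67, 4.13, 11.4 and 8.33 (log2 change 1.17). hom2, aspartate semialdehyde dehydrogenase, had 13.3, 14.5, 21.8 and 28.7 (0.86), and wtf6 had 25.6, 18.5, 47.0 and 40.6 (0.99). These 4 genes were picked on the higher side, so their shared direction follows from the choice. In none did the difference pass the adjusted threshold in this fit.

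On the lower side SPAC977.18, of unknown function, had 51, 21, 7 and 2 reads, a log2 change of -3.59 ± 0.85 (SE, edgeR adjusted p = 0.257). DESeq2's Wald test called it (adjusted p = 0.0460) and no other long-intron gene, where it called 1.14% of the features with an adjusted p. set7, a histone methyltransferase, had CPM of 22.1, 29.9, 10.3 and 15.2 (log2 change -1.03). pmd1, a drug efflux transporter, had 17.2, 18.0, 9.86 and 9.51 (-0.86). Each was picked on the lower side and had both deletion libraries below both wild-type ones. Without eif3e deletion replicate 2, edgeR called 1 long-intron gene, arf6, a small GTPase, with an adjusted p of 0.0326 and reads of 69, 18, 308 and 39; 3.91% of all features were called in that setting.

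Also compared were the 10 genes with the most intron bases, listed above, and those of highest mean CPM. The latter were acl1, ade2, rmt3, mpc1, cct8 and qcr8. Of both sets together, 10 had strains that did not overlap in CPM, 5 higher and 5 lower in the deletion. Among all features 20.1% and 21.4% were so. cit1 had 108, 109, 624 and 347 reads and its CPM was 8.77 ± 5.80 in wild type against 23.5 ± 8.09 in the deletion (SD, n = 2 each), with a log2 change of 1.46. gnd1 (1.02), ade2 (1.05), prr1, a stress transcription factor (0.73), and mpc1 (0.75) were also higher in both deletion libraries. dbp2 (-0.78) and osh42, an oxysterol-binding protein (-0.79), were lower in both. The arginine methyltransferase genes were too, rmt1 with CPM of 7.09, 8.49, 4.42 and 6.06 and rmt3 with 299, 295, 233 and 219, as was qcr8 with 228, 221, 144 and 156. None of these 10 passed the edgeR adjusted threshold. The change of cit1 was 0.86 without wild-type replicate 1 and 2.32 without wild-type replicate 2, and those of gnd1 and ade2 were 0.47 without eif3e deletion replicate 2. That of dbp2 was -0.46 without eif3e deletion replicate 1 and -1.17 without eif3e deletion replicate 2, and that of osh42 -0.51 without wild-type replicate 1. acl1, ATP citrate lyase, which had the most reads of all at 11650, 5499, 22016 and 9473, overlapped between the strains in CPM.

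**Figure D4:**
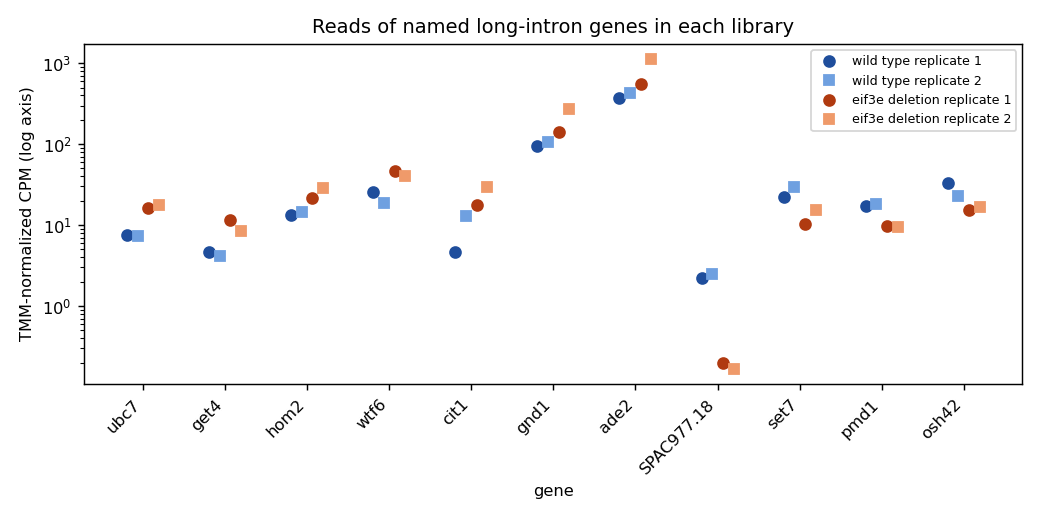
TMM-normalized CPM (log axis) of 11 long-intron genes in the 4 libraries, blue for wild type and red for the deletion. The strains do not overlap in any gene shown, and SPAC977.18 is farthest apart, near 2.21 and 2.48 against 0.200 and 0.168.

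For the junction share, limma was run on log2 of junction RPKM over RPKM, each with 0.1 added, over 2005 features with introns and a mean of 50 reads or more, 347 of them long-intron genes. It called 0 of the 347, where it called 0.0499% of the 2005 higher and 0% lower; that 1 feature is int6 itself, which has almost no reads in the deletion. Unadjusted p under 0.05 was met by 4 higher and 4 lower genes, beside 2.19% and 1.1% of all tested. Both deletion libraries were above both wild-type ones in 66 genes (19.0%) and below in 31 (8.93%), beside 19.3% and 7.88% of all. These shares are close to the background. No library had a junction read in 31 of the 347 genes, and there the ratio moves with RPKM alone. Such genes are counted in these shares and in the median that follows, which thus do not measure junction reads alone. The median log2 change was 0.15, beside 0.11 over all tested, and without eif3e deletion replicate 2 these were -0.15 and -0.16. edgeR on the junction reads, with the reads of the gene as offset, also called 0.

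Of the 4 on the higher side, rpt4 had 4, 0, 18 and 4 junction reads among 343, 82, 382 and 112 reads. Its share was 1.17% and 0% in wild type and 4.71% and 3.57% in the deletion, with exact 95% binomial intervals of 0.319% to 2.96% and 2.82% to 7.35% in the replicate 1 libraries, which cover counting error only and overlap slightly. The log2 change was 1.55 (limma adjusted p = 1). vps55, of endosomal sorting, had 24, 2, 51 and 8 junction reads among 235, 48, 215 and 62 (log2 change 1.25). wtf4 had 13, 1, 29 and 6 among 251, 81, 252 and 71 (1.56), and wtf17 had 1, 3, 24 and 8 among 69, 32, 172 and 44 (1.46).

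On the lower side cox6, a cytochrome oxidase subunit, had 14, 4, 1 and 0 junction reads among 308, 118, 473 and 128 reads. Its intervals were 2.51% to 7.51% in wild-type replicate 1 and 0.00535% to 1.17% in eif3e deletion replicate 1, which do not meet but cover counting error only, and not the spread between libraries. The log2 change was -2.12 (limma adjusted p = 1). Its reads as such overlapped between the strains. scs2, a VAP protein of membrane contact sites, had 10, 2, 0 and 0 among 263, 99, 439 and 179 (-1.67). SPAC1952.04c, of unknown function, had 3, 1, 0 and 0 among 69, 20, 181 and 30 (-1.96), and pfa5, a palmitoyltransferase, 7, 1, 0 and 0 among 84, 16, 119 and 30 (-1.40). These sizes depend on the added value: cox6 changed by -0.29 with 1 RPKM added and by -4.37 with 0.01 RPKM added, and rpt4 by 0.59 and 3.08. The direction was the same in all 8 genes under both.

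In several genes 1 library held nearly all junction reads. ymc1 had 0, 0, 26 and 1, and klp3, a kinesin, 0, 0, 33 and 0 among 123, 27, 209 and 67 reads. tup12, a corepressor, had 4, 2, 31 and 2. Without eif3e deletion replicate 2, limma called 5 long-intron genes: ymc1 and tup12 higher, and SPAC1952.04c, gem1 and SPAC8E11.04c lower, with adjusted p from 0.00183 to 0.0468. In that setting 1.55% of all tested features were called, so the share of long-intron genes is near the background. With that library none passed.

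**Figure D5:**
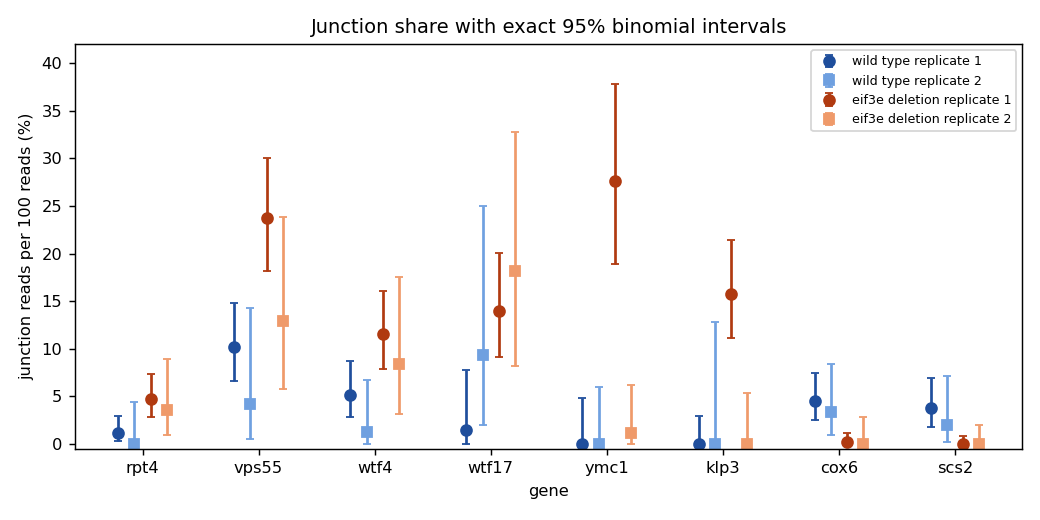
Junction reads per 100 reads (%) with exact 95% binomial intervals in the 4 libraries for 8 long-intron genes. rpt4, vps55, wtf4 and wtf17 are higher and cox6 and scs2 lower in both deletion libraries, while klp3 rests on eif3e deletion replicate 1 alone and ymc1 nearly so.

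Incompatible reads were rare. The 420 genes held 36, 8, 31 and 10 of them, in 14, 7, 11 and 8 genes, or 85 reads in 29 genes over all libraries, 15 of these with 1 read. Per 1000 junction reads that was 6.23, 3.77, 3.09 and 2.56, against 6.57, 8.19, 10.9 and 8.80 in shorter-intron genes. The latter held 187, 102, 539 and 166 incompatible reads, in only 25, 15, 16 and 17 of 2084 genes. The rates of both groups thus rest on few genes. osh41, an oxysterol-binding protein gene with 7 introns, had 12, 1, 5 and 0. mnh1, the mago nashi homologue of the exon junction complex, had 7, 1, 0 and 0, and qcr8 0, 0, 6 and 2. cyp1, a cyclophilin, had 0, 0, 8 and 0, all in 1 library.

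limma on log2 of incompatible RPKM over RPKM, again with 0.1 added, called qcr8 alone among the 347 genes, where 0.15% of the 2005 features were called higher and 0.0998% lower. Its log2 change was 2.54 (limma adjusted p = 0.00132), on 0 and 0 against 6 and 2 reads, and it was not called with 1 RPKM added or without either wild-type replicate. In 321 of the 347 genes, and 97.0% of all tested features, no library had an incompatible read, so the ratio there moves with RPKM alone and says nothing of such reads. For that reason the changes of other genes in it are not given. The 42 genes with both deletion libraries higher and 23 with both lower, beside 13.5% and 4.89% of all tested, carry the same limit.

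Among genes that act in splicing itself, 8 long-intron genes were on the list. The Prp19 complex members prp19 and cdc5 had 172, 105, 368 and 149, and 1127, 616, 1955 and 768 reads. lsm2, of the U6 snRNP, had 62, 16, 21 and 22, and sme1, an Sm core protein, 138, 67, 142 and 55, with CPM of 5.97, 7.90, 4.05 and 4.63 (log2 change -0.67). prp39 of the U1 snRNP, sap62 of the U2 snRNP, the RNA-binding rsd1 and the SR protein gene srp2 complete them. rsd1 has 6 introns and no junction read among 125, 50, 268 and 85 reads, whereas srp2, with 9 introns, had 11, 5, 26 and 19.

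Over the whole splicing list, edgeR tested 76 genes and called 0, with 34 positive and 42 negative log2 changes and a median of -0.02. Of those without long introns, prp43, a helicase of spliceosome disassembly, had the smallest p on the lower side, with 1330, 407, 1163 and 336 reads (log2 change -0.78, edgeR adjusted p = 0.359). On the higher side it was cwf11, with 137, 41, 292 and 103 reads (0.65, edgeR adjusted p = 0.528). Of the 34 tested genes of RNA surveillance 0 were called, with a median of -0.08. Of those without long introns, rrp4, an exosome subunit, had the smallest p on the lower side, with 435, 134, 199 and 98 reads (-1.33, edgeR adjusted p = 0.257). On the higher side it was dhp1, a 5′-3′ exoribonuclease, with 327, 128, 748 and 268 reads (0.59, edgeR adjusted p = 0.482). The long-intron members of the surveillance list are red1, of meiotic transcript elimination, with 387, 151, 434 and 218 reads, and erh1. The latter had 23, 3, 78 and 12 reads, of which 4, 1, 35 and 6 were junction reads. spo4, the meiotic kinase gene, had 0, 2, 16 and 2 reads and no junction read, and of 5 tested genes with regulated meiotic splicing 0 were called. Ribosomal protein genes were listed by symbols starting rpl, rps or rpp, and a gene so named need not encode a ribosomal protein. Of the 141 genes on this list 0 were called, with 95 negative and 46 positive changes and a median of -0.10. On the list 3 have long introns: rpl3801, rpl701 and rpp0. The long-intron gene cpc2, described above, is not on it because of its symbol.

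All 19 wtf genes of the set passed the read filter. Their log2 changes were positive in 12 and negative in 7, with a median of 0.34 and a range from -0.71 to 2.16. Both deletion libraries were higher in 7 and lower in 2 of the 19, beside 20.1% and 21.4% of all features, and the smallest edgeR adjusted p was 0.322. Together they held 121, 44, 176 and 75 junction reads among 3369, 887, 5519 and 1876 reads. In 16 of the 19 a read value was fractional, compared with 42 of all 420 genes, so single wtf values are uncertain. RefSeq marks 5 of them as pseudogenes. Of the oxysterol-binding genes, osh2, osh41, osh42 and osh6 have long introns and osh3 has none.

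Other features overlap many of the genes, on the same strand in 77 and on the opposite strand only in 215. The sources used here do not state whether counting used strand, so reads of overlapping genes cannot be told apart. In the genes without overlap the median log2 change was 0.04 for both reads and the junction share.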

How the data were processed

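Per the labels' protocols, rRNA-depleted RNA of 2 strains, with 2 libraries each, was cut by RNase III before SOLiD 4 sequencing. Tools named in the submitters' processing notes are TopHat 1.4.1, Bowtie 1.1.0, Partek 6.0 and SAMtools. No genome build is given in the sources used here. Deposited positions matched RefSeq's ASM294v3 in chromosome for 100% and in start or end for 99.3% of 6636 features.

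The deposited table gives estimated counts of reads per feature, RPKM, junction RPKM and incompatible RPKM. Values tied to no library numbered 0. Counts were rounded for edgeR 4.0.16 (TMM, filterByExpr). Junction and incompatible reads were recovered from RPKM to within 0.02 of a whole read. limma 3.58.1 (eBayes with trend) and DESeq2 1.42.0 ran in R 4.3.3. All tests were two-sided. The edgeR reads test and the limma junction share test were run on simulated data, where the share test recovered a minority of large changes. The simulated reads had a lower dispersion than the 0.111 fitted here, and the simulated junction reads had counting error only. These libraries vary more, so the simulation does not give the power of the tests on them.

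The rule for members uses annotation alone, but members and lists were chosen with earlier results of these data known. Named genes were the extremes by intron bases, level, share and smallest p per direction, and list members; 1 gene so named is not reported here. cit1, gnd1 and others described beside them, and those of the tests without a library, were chosen after their values were seen. spp2, not a splicing gene, was removed from the splicing list.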

Additional observations from a re-analysis of the deposited data

How the results depend on the processing

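Calls over all tested features depended on the setting. In reads, 1 feature was called, against 20 with no filter, 77 by DESeq2, 193 with the replicate block and 0 to 242 when a library was left out. Of the long-intron genes 0 were called, against 1 by DESeq2, 5 with the block, which called 3.26% of all features (cit1, thf1, ubc7, wtf6 and set7) and 0 to 1 without a library. In the junction share 1 was called, against 3 with 1 RPKM added, 0 with 0.01 RPKM added, 0 at a mean of 200 reads, 0 with no filter, 2 by edgeR on junction reads (chosen after seeing the data) and 2 to 31 without a library. Long-intron genes gave 0, and 0 to 5 without a library. In the incompatible share 5 were called, against 2 at a mean of 200 reads, 9 with no filter, 79 with the block and 1 to 6 without a library. Long-intron genes gave 1, against 0 with 1 RPKM added, 2 with 0.01 RPKM added, 2 with no filter, 9 with the block (3.94% of all) and 0 to 1 without a library. The medians of the long-intron genes ranged from 0.02 to 0.16 in reads, -0.15 to 0.35 in the junction share and -0.34 to 0.50 in the incompatible share without a library. ski2, at 0.42 in reads, ranged from -0.057 (without wild type replicate 1) to 1.07. The cause was not tested. When a library was left out, the lone one was assumed to vary like the other strain's.

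The replicate numbers are not stated to mark a batch, and sample titles share a prefix across strains. The deviations of the replicate 1 libraries correlated at 0.238 in reads and 0.114 in the junction share, across genes. With 2 pairs the pairing cannot be settled, so the block is given only here. Few junction reads per gene limit every share.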
